A study of Citrus sinensis with 72 samples.

Results

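In the fruit of the ‘Fengjie 72-1’ navel orange (Citrus sinensis), 163 of the 30940 genes in the expression table were shared by the albedo (AL) and the segment membrane (SM), in that their levels were alike in these tissues and higher than in the epicarp (EP) and the juice sac (JS). The genes were chosen from the values themselves. For each gene the log2(mean FPKM + 1) of a tissue and stage was averaged over the 6 stages, where FPKM is the number of fragments of a gene relative to its length and to all fragments mapped in the library. A gene was kept when its AL and SM averages were less than 1 apart on the log2 scale, when the lower of them was at least 1 above both the EP and the JS average, and when its highest group mean was 10 to 3000 FPKM. The distance from that lower average to the higher of EP and JS is called the gap. The 13280 genes within this level range are the wider set, of which the 163 genes made up 1.23%. By the same rule 177 genes were shared by AL and EP, 91 by SM and JS, 83 by EP and JS, 12 by SM and EP, and 2 by AL and JS.

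The 72 libraries came from the 4 tissues at 6 stages of fruit development, 3 biological replicates to a sample, where AL1 is AL at stage 1. By the labels stages 1, 2 and 3 fell 50, 80 and 120 days after flowering (DAF), and stages 4, 5 and 6 at 150, 180 and 220 DAF. The sources disagree on the day of stage 4, and the label was used. No treatment was part of the design. All fruit came from trees of the same cultivar, grafted on Poncirus trifoliata in 1 orchard, and by the paper's sampling a replicate pooled fruits of 3 trees, so that the same trees stood behind every tissue and stage. Each library held 15365222 to 25424357 fragments, as recovered from the FPKM values.

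The albedo is the white, spongy inner layer of the citrus peel, with large air spaces between its cells, and the segment membrane is the thin skin that wraps every segment. Both are pale, rich in pectin, and crossed by the vascular strands that feed the fruit. The epicarp is the coloured skin with the oil glands, and the juice sacs are the vesicles that fill with sugar and acid. The table holds gene IDs without names, and 0 of the 30940 IDs matched the reference table, so that neither the function of the 163 genes nor markers of the dissected tissues could be looked up. The genes are given by their IDs, of which 138 began with Cs, 22 with orange1.1t and the other 3 with neither.

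Of the 72 libraries, 3 were closest to a library of another sample when all genes were correlated. The library labelled AL2 replicate 1 was closest to AL4 replicate 1 (r = 0.977), the library labelled AL3 replicate 1 to AL2 replicate 2 (r = 0.963), and EP2 replicate 1 to EP3 replicate 3 (r = 0.971). The same AL libraries stood apart in the genes described here. Of the 44 genes that were higher at stage 6 than at stage 1 in both AL and SM, 36 had a higher FPKM in the library labelled AL2 replicate 1 than in both other AL2 libraries, and 30 had a lower FPKM in the library labelled AL3 replicate 1 than in both other AL3 libraries. The median log2(FPKM + 1) of these 44 genes was 4.17, 2.78 and 2.78 in the AL2 libraries and 2.30, 4.46 and 3.43 in the AL3 libraries. Values without them are given for the main counts and descriptions that use AL2 and AL3. Without both, the rule found 162 genes, of which 159 were among the 163.

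The 163 genes took a small share of the RNA in AL and SM. Summed over the genes, they held 0.621 to 1.27% of the FPKM of a library in the 18 AL libraries (median 0.784%) and 0.502 to 0.846% in the 18 SM libraries (median 0.699%), against 0.0984 to 0.336% in the EP (median 0.127%) and 0.0786 to 0.309% in the JS (median 0.139%). Because the rule chose these genes for this difference, it is a description and was not tested. No EP or JS library reached the share of any AL or SM library. In whole dissected tissue, fewer cells that express a gene and less of its RNA per cell cannot be told apart.

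**Figure D1:**
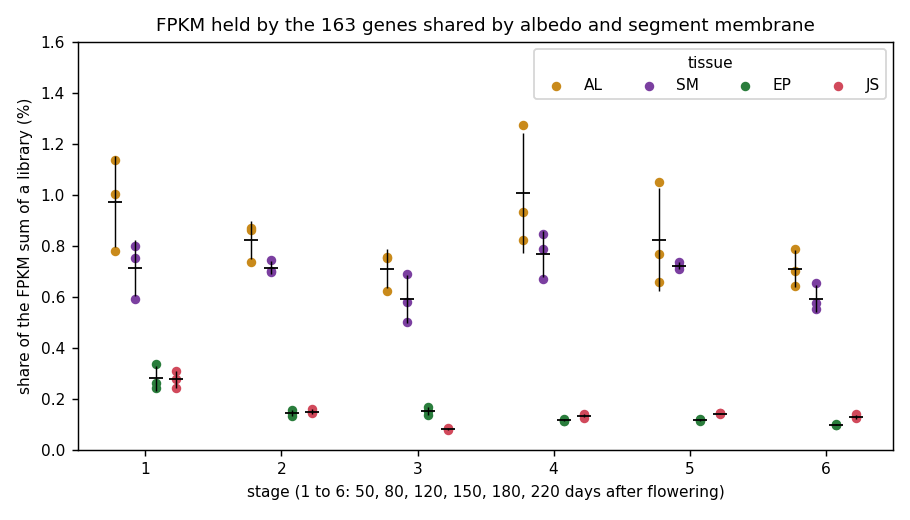
Share of the FPKM sum of each library held by the 163 genes (y axis, %) at the 6 stages (x axis), where points are the 3 libraries of a sample, horizontal marks their mean and vertical lines 1 SD on either side. The AL and SM libraries lie between 0.502 and 1.27%, and the EP and JS libraries reach at most 0.336%, at stage 1.

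The share was highest in AL at stage 4 (1.01 ± 0.235%, SD, n = 3) and stage 1 (0.972 ± 0.179%). At stage 4 replicate 2 held 1.27%, against 0.821 and 0.931% in the others, so that the AL stages overlapped. The SM means lay between 0.591 ± 0.0946% at stage 3 and 0.767 ± 0.0903% at stage 4 (SD, n = 3). In the EP the mean share was no more than 0.152% from stage 2 on, against 0.279 ± 0.0496% at stage 1, and in the JS no more than 0.150% from stage 2 on, against 0.277 ± 0.0329% at stage 1 (SD, n = 3 each). The highest shares of the EP and the JS were thus those of the youngest fruit.

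Most of the genes were of moderate level. The highest group mean of a gene ranged from 10.3 to 1224 FPKM with a median of 34.9, was below 20 FPKM for 52 genes and reached 100 FPKM for 33. That highest group was an AL sample for 89 genes, an SM sample for 71, an EP sample for 2 (Cs2g29090 and Cs6g19260, both at stage 1) and a JS sample for 1 (Cs2g01020, at stage 1). The last 3 IDs were singled out after their values were seen. Fragments were counted in all 36 AL and SM libraries for 146 genes and in all 36 EP and JS libraries for 78. The 10 genes with the highest FPKM held 43.9% of what the 163 genes summed to in AL and SM.

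The average over stages had a median of 3.47 in AL (quartiles 2.81 and 4.26) and 3.28 in SM (2.69 and 4.12) on the log2 scale, against 1.15 in the EP (0.575 and 1.97) and 1.00 in the JS (0.405 and 2.11). AL was above SM in 104 genes and SM above AL in 59, and the averages were within 0.5 of each other in 95. The EP was above the JS in 93 genes, so that neither of the low tissues was the lower one throughout. The gap had a median of 1.57 and reached 2 in 44 genes and 3 in 7. At the edge of the rule, orange1.1t00573 (gap 1.00) and Cs6g19260 (gap 1.01) were just inside, and Cs3g18370 (gap 0.998) and Cs5g10480 (gap 0.996) just outside.

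Cs5g12430 had the largest gap, 3.90. It had 35.7, 46.6 and 53.0 FPKM in the AL1 libraries, 40.4, 89.9 and 55.7 in AL4 and 27.6, 14.4 and 18.8 in AL6, and 24.8, 13.8 and 29.3 in SM1, 51.8, 61.7 and 66.7 in SM3 and 18.2, 23.6 and 22.2 in SM6. In the EP it had 0.161, 0.0406 and 0.0402 FPKM at stage 6 and 1.27, 0.322 and 0.545 at stage 1, and in the JS 1.92, 0.971 and 2.53 at stage 1, 1.22, 1.61 and 6.88 at stage 2 and 0.333, 0.634 and 0.129 at stage 6. Every AL and SM library was above every EP and JS library. That held for 5 of the 163 genes, the others being Cs2g29650, orange1.1t01636, Cs5g28100 and Cs5g11010, which were singled out after their values were seen. For the median gene, 20 of the 36 AL and SM libraries were above all 36 EP and JS libraries. The rule chose the 163 genes for a difference of this kind, and neither value was counted over all genes.

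Cs7g04520 came next with a gap of 3.81. It had 179, 188 and 352 FPKM in AL6 and 34.3, 21.2 and 33.1 in AL1, and 137, 44.3 and 84.6 in SM6 and 28.8, 3.84 and 10.6 in SM1. In the EP it had 2.27, 2.04 and 5.33 FPKM in EP6 and 7.68, 2.18 and 2.42 in EP1, and in the JS 1.40, 1.13 and 1.42 in JS6 and 0.897, 0.742 and 1.81 in JS1. The lowest of the SM1 libraries lay within the EP1 range, and from stage 2 on every AL and SM library was above every EP and JS library.

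The highest FPKM over the AL and SM libraries belonged to Cs4g15710 and orange1.1t02385, with means of 475 and 420 FPKM in AL and SM against 118 and 103 FPKM in the EP and JS. Cs4g15710 had 661, 437 and 613 FPKM in AL6 and 123, 202 and 236 in AL1, and 823, 1115 and 949.6 in SM6 and 76.9, 65.7 and 76.5 in SM1. In the EP it had 60.0, 59.9 and 39.3 FPKM in EP6 and 161, 115 and 94.9 in EP1, and in the JS 285, 398 and 329 in JS6 and 32.3, 17.4 and 40.1 in JS1. It was therefore well expressed everywhere, and at stage 1 its SM libraries were below those of the EP. orange1.1t02385 went up and down over the stages: its means were 997, 109, 54.6, 996, 148 and 18.5 FPKM in AL1 to AL6 and 1224, 744, 108, 525, 107 and 8.83 FPKM in SM1 to SM6. In the JS its means were 611, 317, 11.3, 161, 54.8 and 4.07 FPKM over the same stages, and in the EP no group mean was above 26.1 FPKM. At stages 1 and 4, where it was high in AL and SM, it was also high in the JS.

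**Figure D2:**
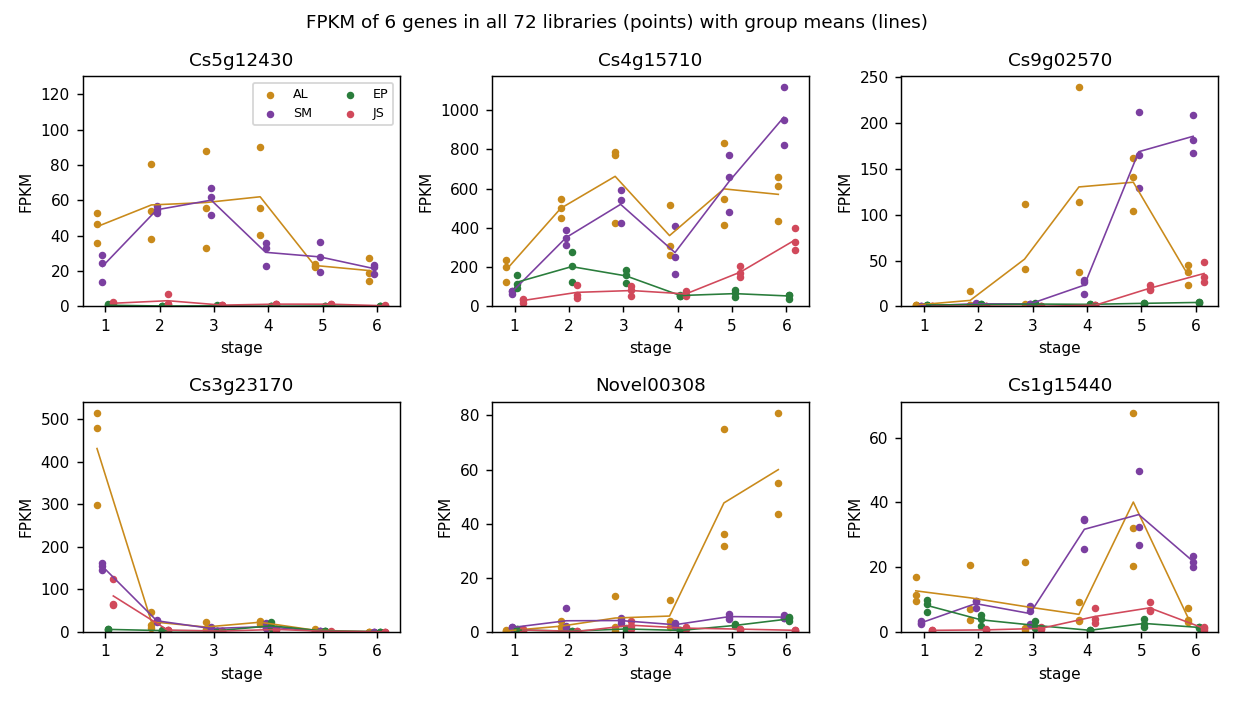
FPKM (y axis) of 6 of the genes in all 72 libraries at the 6 stages (x axis), where points are libraries and lines join the group means. Cs5g12430 is high in AL and SM at every stage, Cs4g15710 is expressed in all tissues, Cs9g02570 is high late, Cs3g23170 is high at stage 1, Novel00308 is high in AL5 and AL6, and Cs1g15440 is higher in SM6 (20.1 to 23.5 FPKM) than in AL6 (3.00 to 7.20 FPKM).

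The genes differed from the wider set in the length used for FPKM. The length recovered from the values had a median of 1277 bases (quartiles 861.5 and 1832.5) for the 163 genes and 1701 bases (1182 and 2334.25) for the 13280 genes in the level range. They were spread over the ID series: by prefix, their share of the genes in the level range ran from 0.652% (7 of 1074, Cs6g) to 1.82% (29 of 1591, Cs7g). Only 2 pairs had neighbouring ID numbers, Cs2g25040 with Cs2g25050 and Cs7g20820 with Cs7g20830.

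The gap was not the same at all stages. Taken stage by stage, it reached 1 in 47 genes at stage 1, and in 117, 118, 129, 117 and 98 genes at stages 2 to 6, with medians of 0.41, 1.45, 1.63, 1.72, 1.47 and 1.24 on the log2 scale. It was above 0 in 109 genes at stage 1 and in 162 at stage 4. A gap of at least 1 was held at all 6 stages by 19 genes, at 5 by 39, at 4 by 39, at 3 by 36, at 2 by 23 and at 1 by 7. The genes were thus least set apart in the youngest fruit. Without the libraries labelled AL2 replicate 1 and AL3 replicate 1, the numbers at stages 2 and 3 were 108 and 113, and 19 genes held the gap at 6 stages, 31 at 5, 45 at 4, 36 at 3, 25 at 2, 5 at 1 and 2 at none.

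The median over the 163 genes of log2(mean FPKM + 1) followed a different course in each tissue. In AL it was 3.42, 3.87, 3.38, 3.79, 3.60 and 3.09 at stages 1 to 6, and in SM 2.81, 3.19, 3.44, 3.80, 3.59 and 2.92. In the EP it was 1.66, 1.03, 1.23, 0.68, 0.85 and 0.55, and in the JS 1.03, 0.93, 0.64, 1.07, 1.01 and 0.69. At stage 1 the SM median was at its lowest and the EP median at its highest. AL was above SM in 132 genes at stage 1 and in 116 at stage 2, but in 75 to 92 genes at the later stages, where the median difference between them was at most 0.08 in size. Without the libraries labelled AL2 replicate 1 and AL3 replicate 1, the AL medians at stages 2 and 3 were 3.67 and 3.35, and AL was above SM in 98 and 72 genes.

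**Figure D3:**
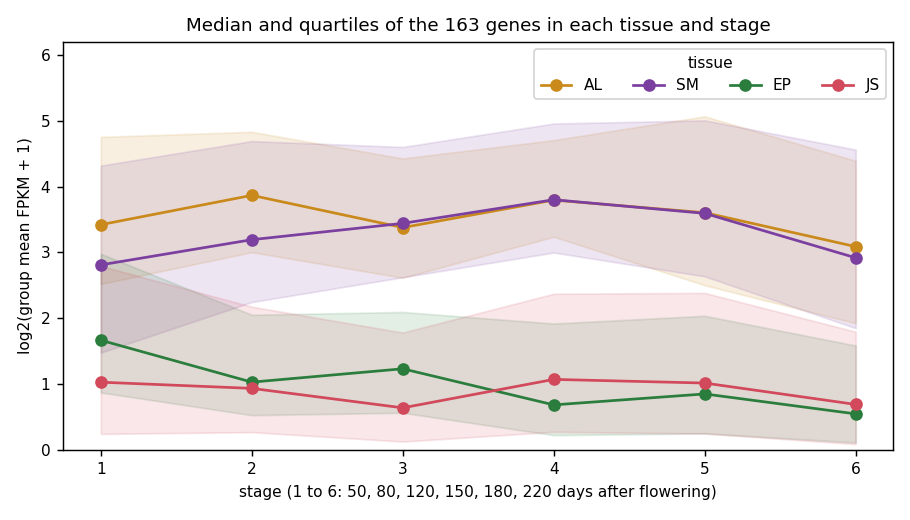
Median (points) and quartiles (shaded) over the 163 genes of log2(group mean FPKM + 1) on the y axis, for the 4 tissues at the 6 stages on the x axis. AL is 0.62 above SM in the median gene at stage 1 and the medians lie together from stage 3 on, while the EP median is 0.55 at stage 6 and 1.66 at stage 1.

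Whether the distance between the tissues changed was tested, since the rule used only the average over stages. The mean of AL and SM minus the mean of EP and JS was compared between stage 6 and stage 1 in a limma fit of all 72 libraries, with p adjusted over 20077 genes. The distance was larger at stage 6 in 73 of the 163 genes and smaller in 33, where 28.5% of all genes tested were called larger and 15.1% smaller. The median change was 0.64 for the 163 genes and 0.19 for all genes. The split depends on how low values are treated, being 86 and 25 with a pseudocount of 0.1 and 80 and 17 with limma-voom on the recovered fragments. Of all 20077 genes, 5358 were then larger and 2859 smaller, and 5135 larger and 2695 smaller. The split of all genes also depends on scaling. With libraries scaled by their median ratios, 3846 of 19963 genes were larger and 4270 smaller, with a median change of -0.002. The 163 genes then gave 65 larger and 34 smaller, with a median of 0.43.

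The distance grew most for Cs5g06570 (log2 change 4.26, SE 0.51, limma adjusted p = 7.89e-10). It had 24.1, 10.4 and 24.5 FPKM in AL6 and 0.263, 0.185 and 0.199 in AL1, 104, 92.2 and 156 in SM6 and 0.863, 0.166 and 0.493 in SM1, 0.0301, 0.0303 and 0.03 in EP6 and 0.868, 1.05 and 0.116 in EP1, and 6.03, 5.75 and 4.92 in JS6 and 0.466, 0.138 and 0.101 in JS1. All AL6 and SM6 libraries were above those of the other samples named. The gene orange1.1t05755 followed (4.17, SE 0.67, adjusted p = 8.85e-07). The distance shrank most for Cs3g23170 (-3.46, SE 0.39, adjusted p = 1.34e-10) and Cs3g25730 (-3.32, SE 0.26, adjusted p = 1.44e-15). Cs3g25730 had 0.529, 0.7 and 1.06 FPKM in AL6 and 84.3, 75.4 and 85.9 in AL1, and 3.11, 1.27 and 3.08 in SM6 and 156, 99.8 and 85.0 in SM1. It had no more than 0.266 FPKM in the EP6 and JS6 libraries, against 1.14 to 9.38 FPKM in the EP1 and JS1 libraries. All 4 tissues were near 0 at stage 6, and with limma-voom on the recovered fragments the change was -0.77 with an adjusted p of 0.3505 (4.321e-17 to 0.3505 over the alternatives).

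From stage 1 to stage 6 most of the genes changed within AL, more of them downwards. In AL6 vs. AL1, 162 of the 163 genes could be tested, of which 49 were higher and 73 lower at stage 6 (limma, adjusted p under 0.05), while 41.3% of all 16574 genes tested were higher and 26.3% lower (67.6% called). The median log2 fold change was -0.41 for the 163 genes and 0.28 for all genes. In SM6 vs. SM1, 158 could be tested, of which 61 were higher and 53 lower, while 26.4% of all 16720 genes tested were higher and 43.1% lower (69.6% called), with medians of 0.20 and -0.29. In each tissue the median of the 163 genes thus had the opposite sign to that of all genes. Scaling the libraries by their median ratios brought the medians of all genes to -0.06 in AL and -0.10 in SM, so that the signs were then alike in AL, and those of the 163 genes to -0.72 and 0.39. Of all genes, 4509 of 16573 were then called higher and 5687 lower in AL, and 5368 of 16879 higher and 6430 lower in SM. Of the 163 genes, 39 were then higher and 82 lower in AL, and 66 higher and 50 lower in SM. In AL both sets thus had more genes lower than higher after scaling. When any 1 library was left out, the counts were between 98 and 113 in AL and between 94 and 106 in SM, and in AL more genes were lower than higher each time. In SM the balance turned: without SM6 replicate 1, 2 or 3 there were 42, 50 and 43 higher and 55, 53 and 51 lower. Only 142, 144 and 144 genes were then tested, since a gene that reached 1 FPKM in the 3 SM6 libraries alone failed the filter. Without SM1 replicate 1, 2 or 3 there were 68, 56 and 56 higher and 38, 40 and 41 lower. Without the filter, 59 were higher and 56 lower of 163. Without SM6 replicate 1 the median of the genes tested was -0.01, the same sign as that of all genes (-0.42).

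Over these tests 44 genes were higher at stage 6 in both AL and SM and 48 were lower in both. A change called in AL alone was seen in 19 lower and 5 higher genes that were tested in both, and in SM alone in 14 higher and 5 lower genes. No call in either was made for 20, and of the other 5 genes 4 lacked a test in SM and 1 in both tissues, 3 of the 4 being lower in AL. The remaining calls in both tissues ran in opposite directions in 3 genes, all lower in AL6 than in AL1 and higher in SM6 than in SM1. The shares of all genes that fell into these groups were not counted. Whether the genes described here changed alike in AL and SM more often than all genes was therefore not tested.

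**Figure D4:**
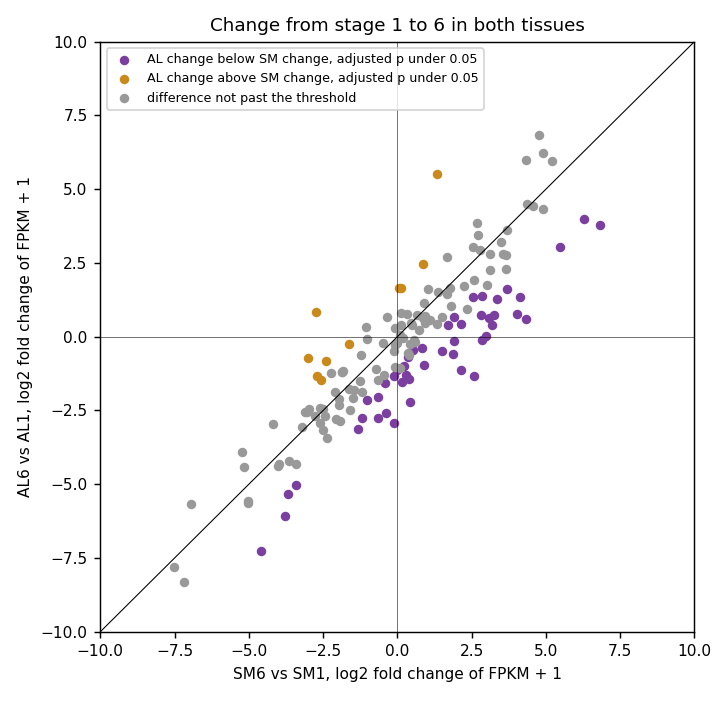
Log2 fold change of FPKM + 1 at stage 6 against stage 1 in AL (y axis) and SM (x axis), where each point is 1 of the 158 genes tested in both and the diagonal marks an equal change. Coloured points are genes whose AL and SM changes differed past the threshold, and most of these lie below the diagonal.

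Among the genes higher late in AL, orange1.1t05755 had 141, 221 and 208 FPKM in AL6 and 0.314, 0.707 and 0.947 in AL1 (log2 fold change 6.84, SE 0.22, limma adjusted p = 3.1e-07). It was at 100 FPKM or more in all 6 libraries of AL5 and AL6, and in the JS and EP no library was above 8.65 FPKM. Cs7g06870 had 158, 96.7 and 111 FPKM in AL6 and 1.09, 0.433 and 0.387 in AL1 (6.22, SE 0.24, adjusted p = 6.34e-07). In SM it had 67.8, 44.9 and 24.7 FPKM at stage 3. AL3 had 0.252, 26.6 and 4.72 FPKM, the first being the library labelled AL3 replicate 1. AL2 had 38.9, 1.20 and 0.958 FPKM, the first being the library labelled AL2 replicate 1. The stage at which Cs7g06870 rose in AL is therefore not clear. In the JS it appeared at stages 4 and 5 (means of 11.9 and 32.7 FPKM).

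Among the genes higher late in SM, Cs9g02570 had 181, 167 and 208 FPKM in SM6 and 0.762, 0.505 and 0.643 in SM1 (log2 fold change 6.83, SE 0.15, limma adjusted p = 1.09e-08). Its means in SM were 0.636, 2.87, 2.73, 23.3, 169 and 186 FPKM at stages 1 to 6, and in AL 1.51, 6.59, 51.6, 130.4, 136 and 35.0 FPKM. The highest mean was thus at stage 6 in SM and at stage 5 in AL, where stage 6 was lower but above stages 1 and 2. The AL3 libraries of Cs9g02570 had 2.12, 112 and 40.5 FPKM, the first of them being the library labelled AL3 replicate 1. Cs5g06570 rose by 6.28 on the log2 scale in SM (SE 0.25, adjusted p = 1.39e-07).

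The same 2 genes led the decreases in both tissues. Cs3g23170 had 0.29, 0.475 and 0.224 FPKM in AL6 and 299, 479.7 and 516 in AL1 (log2 fold change -8.31, SE 0.22, limma adjusted p = 1.41e-07), and 0.221, 0 and 0 in SM6 and 154, 146 and 161 in SM1 (-7.18, SE 0.15, adjusted p = 8.94e-09). It also had 65.6, 123 and 63.9 FPKM in JS1 but 7.02, 5.52 and 4.30 in EP1. Cs2g29090 had 0.344, 0.355 and 0.622 FPKM in AL6 and 333, 299.7 and 333 in AL1 (-7.81, SE 0.14, adjusted p = 6.29e-08), and 0.492, 0.32 and 0.0191 in SM6 and 169, 232 and 317 in SM1 (-7.53, SE 0.25, adjusted p = 5.36e-08). At stage 1 Cs2g29090 was in fact highest in the EP, with 685, 494 and 408 FPKM, and it met the rule because its mean in the EP was 3.26 FPKM or lower from stage 3 on, against 19.4 and 24.3 FPKM in AL3 and SM3.

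The genes higher and lower late in AL and SM were then followed in the EP and JS, whose libraries took no part in that grouping. Of the 44 genes higher in both AL and SM, 13 were higher and 9 lower in EP6 vs. EP1, and 14 could not be tested for low values. In JS6 vs. JS1, 19 of the 44 were higher and 2 lower, and 20 could not be tested. Of the 48 genes lower in both AL and SM, 1 was higher and 32 lower in the EP, with 11 not tested, and 37 were lower in the JS, with 2 not called and 9 not tested. Of all genes tested, 22.9% were higher and 38.2% lower in EP6 vs. EP1, and 30.5% higher and 45.7% lower in JS6 vs. JS1.

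A gene that passed the filter in the EP or JS through 1 of the stages only was more likely to differ between the stages, so these counts were repeated without the filter. Of the 44 genes, 16 were then higher and 15 lower in the EP, and 26 of the 43 tested were higher and 5 lower in the JS. Of the 48 genes, 1 was higher and 36 lower in the EP, and 42 were lower and 6 not called in the JS. All genes gave 17.0% higher and 31.6% lower in the EP, and 23.6% higher and 38.0% lower in the JS without the filter. The direction seen in AL and SM was thus met in the JS for both groups of genes, though at far lower FPKM. In the EP it was met only for those that were lower late. A decrease in the EP was not particular to them, since 107 of all 163 genes were lower there without the filter. How often all genes that changed alike in AL and SM also did so in the EP or JS was not counted. Whether the match in the JS was particular to the genes described here was therefore not tested. The median FPKM of the 44 genes at stage 6 was 36.9 in AL and 34.2 in SM, against 1.13 in the EP and 2.20 in the JS, and that of the 48 genes at stage 1 was 26.0 in AL and 21.7 in SM, against 4.03 in the EP and 7.06 in the JS.

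Counted over all of the genes, 20 were higher and 80 lower in EP6 vs. EP1 of 114 tested, and 28 were higher and 56 lower in JS6 vs. JS1 of 97 tested. Without EP1 replicate 1, 2 or 3 the EP counts became 20, 18 and 19 higher and 24, 26 and 25 lower, of 57 to 59 genes tested. Without JS1 replicate 1, 2 or 3 the JS balance turned, with 28, 29 and 28 higher and 24, 23 and 23 lower of 64 or 65 tested, since a gene that reached 1 FPKM in the 3 stage 1 libraries alone then failed the filter. Without the filter, 23 were higher and 107 lower in the EP of 163, and 41 higher and 76 lower in the JS of 161.

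Where the AL and SM changes differed, the AL change was mostly the lower one. The difference between the AL change and the SM change from stage 1 to stage 6 was past the threshold in 59 of the 163 genes (35.6% of all genes tested were called), 10 with the AL change above the SM change and 49 with it below. Of all 20077 genes, 27.9% were called above and 7.63% below, so that the balance of the 163 genes was the reverse of that of the table. The median difference was -0.57 for the 163 genes and 0.39 for all genes. With libraries scaled by their median ratios, where the median of all genes was -0.01 and 2684 of 19963 genes were called above and 3189 below, the counts of the 163 genes were 3 above and 64 below.

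Of the genes above, Novel00308 had 81.0, 55.2 and 43.7 FPKM in AL6 and 0.554, 0.104 and 0.279 in AL1, against 5.19, 6.03 and 5.03 in SM6 and 1.21, 1.58 and 1.90 in SM1 (difference 4.18, SE 0.65, limma adjusted p = 1.79e-06). Its AL5 and AL6 libraries, at 31.8 FPKM or more, were above all others. Cs4g08530 had 4.57, 5.12 and 6.22 FPKM in AL6 and 4.29, 0.878 and 3.45 in AL1, against 8.93, 2.35 and 4.83 in SM6 and 146, 48.8 and 7.01 in SM1 (3.57, SE 0.67, adjusted p = 4.23e-05). The SM1 libraries of Cs4g08530 were far apart, and without SM1 replicate 1 the difference was 2.61 with an adjusted p of 0.0006542 (8.701e-10 to 0.0049 over the alternatives).

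Of the genes below, Cs1g15440 had 7.20, 3.49 and 3.00 FPKM in AL6 and 9.61, 11.3 and 17.1 in AL1, against 21.7, 23.5 and 20.1 in SM6 and 3.25, 2.72 and 2.36 in SM1 (difference -3.93, SE 0.70, limma adjusted p = 2.19e-05). AL6 and SM6 did not overlap, nor did AL1 and SM1, and the order of the tissues was turned round. Cs8g15720 had 6.46, 1.72 and 7.67 FPKM in AL6 and 3.30, 3.05 and 2.00 in AL1, against 42.0, 25.5 and 40.0 in SM6 and 0.886, 0.492 and 1.02 in SM1 (-3.75, SE 0.74, adjusted p = 0.000105). In AL its means at stages 3, 4 and 5 were 18.1, 19.5 and 17.0 FPKM, and in SM at stages 3 to 6 they were 9.23, 10.2, 29.9 and 35.8 FPKM. The AL3 mean was made of 2.51, 39.4 and 12.4 FPKM, the first being the library labelled AL3 replicate 1.

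Cs1g15440 was 1 of the 3 genes whose AL and SM changes were called in opposite directions. The others, singled out after their values were seen, were of low level. Cs8g17620 had 2.89, 0.934 and 1.17 FPKM in AL6 and 3.77, 5.29 and 4.80 in AL1, against 14.0, 7.22 and 6.08 in SM6 and 2.36, 0.645 and 0.8 in SM1 (difference -3.29, limma adjusted p = 3.64e-08). Cs4g05630 had 1.25, 1.71 and 1.56 FPKM in AL6 and 1.73, 2.98 and 3.68 in AL1, against 7.03, 5.06 and 8.99 in SM6 and 1.87, 0.666 and 1.05 in SM1 (-2.45, adjusted p = 1.41e-06). The AL change of Cs4g05630 was close to the threshold (log2 fold change -0.57, SE 0.22, adjusted p = 0.0484), and it lost its call in 9 of 12 alternatives (adjusted p up to 0.1487). In both genes AL1 was above SM1 in mean and AL6 below SM6 without overlap.

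The stage of the highest mean was later in SM than in AL for many of the genes. It was the same in 70 genes (42.9%), later in SM in 63 (38.7%) and earlier in SM in 30 (18.4%), whereas in the wider set of 13280 genes it was the same in 48.1%, later in SM in 16.0% and earlier in SM in 35.9%. In AL the highest mean fell at stage 1 or 2 in 39 and 46 genes, and in SM in 25 and 30, while stages 4 and 5 took 25 and 27 genes in AL and 33 and 34 in SM. The share with the highest mean at stage 1 was 23.9% in AL, against 23.5% of the wider set, and 15.3% in SM, against 32.3%. In the EP 87 genes (53.4%, against 22.0% of the wider set) had their highest mean at stage 1, and in the JS 57 (35.0%, against 37.9%). Without the libraries labelled AL2 replicate 1 and AL3 replicate 1, SM was later in 59 genes and earlier in 31, and with libraries scaled by their median ratios, later in 73 and earlier in 25.

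The genes had a wider range over the stages than the wider set, which is a description. The range of the 6 stage means on the log2 scale had a median of 2.65 in AL, 2.91 in SM, 1.62 in the EP and 1.75 in the JS for the 163 genes, against 1.29, 1.38, 1.06 and 1.34 for the 13280 genes in the level range. The rule bears on the AL and SM ranges. The highest group mean had to reach 10 FPKM, and lay in AL for 89 genes and in SM for 71. A gene with a low average over stages could thus pass only through a high stage, mostly in these tissues. In the wider set the highest group could lie in any tissue. Across the 6 stages the AL and SM levels of a gene had a median Pearson correlation of 0.814, against 0.761 in the wider set, while AL with the EP had 0.493 against 0.603, and SM with the EP 0.337 against 0.627. For the JS it was 0.732 with SM, against 0.833, and 0.657 with AL, against 0.699. The 163 genes were low in the EP and the JS (medians of 1.15 and 1.00 for the average over stages), which these correlations do not allow for. Without the libraries labelled AL2 replicate 1 and AL3 replicate 1, the AL range was 2.82, and the correlation of AL was 0.810 with SM and 0.517 with the EP. These correlations rest on 6 points from the same trees and are a description.

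Between consecutive stages, the calls in AL were most at the first step and from stage 4 to stage 5, as they were for all genes (28% and 22% called). In AL2 vs. AL1, 27 of the 156 genes tested were higher (17.3%) and 21 lower (13.5%), near the 15% and 13% of all genes. With libraries scaled by their median ratios 19 of the genes described here were higher and 27 lower. In AL3 vs. AL2 limma called 0 of the 160 genes tested and 0% of all genes, while 11 of the genes and 192 of all genes had an unadjusted p under 0.05. limma-voom also called 0, and 1 fit of all 24 groups called 6, with 23 of all 20077 genes higher and 137 lower. With the libraries labelled AL2 replicate 1 and AL3 replicate 1 both left out, 17 of the 154 genes tested were called, 7 higher and 10 lower. Of all 14682 genes tested, 174 were then higher and 250 lower. AL4 vs. AL3 gave 6 higher and 2 lower genes (1.68% and 0.846% of all genes), AL5 vs. AL4 gave 14 and 31 (11.6% and 10.4%), and AL6 vs. AL5 gave 3 and 32 (5.1% and 5.19%).

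These AL counts moved with the fit and with single libraries. One fit of all 24 groups called 84 genes in AL2 vs. AL1, 55 in AL4 vs. AL3 and 68 in AL5 vs. AL4, and the replicate block gave 19 in AL4 vs. AL3 and 73 in AL5 vs. AL4. The 48 genes of AL2 vs. AL1 (28% of all genes) became 26, 21 and 24 without AL1 replicate 1, 2 or 3, and 55 without the library labelled AL2 replicate 1. The 8 genes of AL4 vs. AL3 (2.53% of all genes) became 0 without AL4 replicate 1, AL4 replicate 2 or AL3 replicate 3, 2 without AL4 replicate 3 and 16 without the library labelled AL3 replicate 1. The 45 genes of AL5 vs. AL4 (22% of all genes) became 28 without AL5 replicate 1, and the 35 genes of AL6 vs. AL5 (10.3% of all genes) became 16, 16 and 23 without AL6 replicate 1, AL5 replicate 1 or AL5 replicate 3.

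In SM the most genes were called at the first step, which was also so for all genes (55.5% called). In SM2 vs. SM1, 72 of the 152 genes tested were higher and 27 lower, while 21.2% of all genes were higher and 34.2% lower, and the median log2 fold change was 0.62 for the genes and -0.20 for all genes. SM3 vs. SM2 gave 34 higher and 32 lower genes (11.9% and 16.3% of all genes), SM4 vs. SM3 gave 38 and 17 (8.36% and 5.91%), and SM5 vs. SM4 gave 27 and 33 (9.15% and 9.77%). SM6 vs. SM5 gave 3 and 48 (2.95% and 7.26%), with a median log2 fold change of -0.66 for the genes and -0.11 for all genes. The decreases at the last step, 32 in AL and 48 in SM, were called in both tissues in 18 genes. The share of all genes lower in both at this step was not counted.

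**Figure D5:**
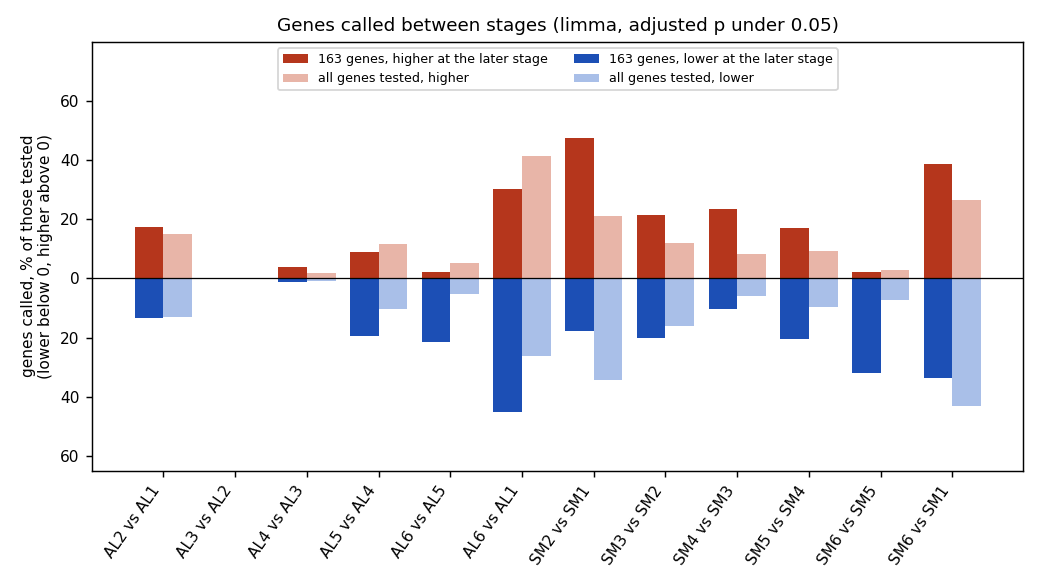
Share of the genes tested that limma called higher (bars above 0) or lower (bars below 0) at the later stage in each comparison (x axis), in % of the genes tested (y axis), with dark bars for the 163 genes and pale bars for all genes. The 163 genes were more often higher in SM2 vs. SM1 (72 genes) and more often lower at the last step in both tissues than all genes.

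Leaving out 1 library did not move the SM2 vs. SM1 count by more than 1.5 times, but it moved those of the other SM steps. The 66 genes of SM3 vs. SM2 (28.2% of all genes) became 39 without SM3 replicate 2, and 40, 42 and 41 without SM2 replicate 1, 2 or 3. The 55 genes of SM4 vs. SM3 (14.3% of all genes) became 36, 29 and 30 without SM4 replicate 3, SM3 replicate 2 or SM3 replicate 3, and the counts were 31 higher and 25 lower with libraries scaled by their median ratios. The 60 genes of SM5 vs. SM4 (18.9% of all genes) became 30, 28 and 37 without SM5 replicate 1, SM5 replicate 2 or SM4 replicate 3. The 51 genes of SM6 vs. SM5 (10.2% of all genes) became 30 and 16 without SM6 replicate 2 or 3, and 17, 22 and 29 without SM5 replicate 1, 2 or 3.

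Set side by side at the first step, 22 genes were higher at stage 2 in both tissues and 18 lower in both. A further 50 genes were higher in SM2 than in SM1 without a call in AL2 vs. AL1. Without the library labelled AL2 replicate 1, these numbers were 24, 20 and 46. Whether the steps differed between the tissues was not tested. From stage 4 to stage 5, 14 genes were lower and 8 higher in both tissues. For these steps too, the shares of all genes called in the same direction in both tissues were not counted.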

How the data were processed

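By the paper's methods and the submitters' processing notes (TopHat2, Cufflinks, HTSeq 0.6.1), the authors filtered the reads, mapped them to the C. sinensis genome and deposited 1 FPKM value per gene and library, without further normalization. Strand was not stated, so overlapping antisense genes could not be told apart. Nor could near-identical genes be told apart from the values given. The authors tested read counts with DESeq2, and those counts were not used here. All 72 columns were matched to samples by name.

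Tests used limma 3.58.1 (R 4.3.3) on log2(FPKM + 1), calling eBayes with a trend and robust variances, and Benjamini-Hochberg adjustment over all genes tested with an adjusted p under 0.05. To be tested, a gene had to reach 1 FPKM in 3 or more libraries of the comparison. Stage comparisons used their own 6 libraries, and differences between tissues in a change used 1 fit of all 24 groups. Fold changes on this scale understate the change of low genes. No difference that the rule itself used was tested.

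Whole fragments were recovered from the FPKM steps for 27759 of the 27759 genes above 0 (tolerance 0.0001 fragments) and used for limma-voom, which called 119 of the 163 genes in AL6 vs. AL1 and 111 in SM6 vs. SM1. The 163 genes had 1878 to 685217 fragments each over all libraries. Scripts were tested on simulated data.

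The genes, tests and lists were chosen with earlier results of these data known. Genes were named by rule: the 2 with the largest gap and the 2 with the highest mean FPKM over AL and SM, the 2 on each side of the edge of the rule, and the 2 highest and 2 lowest log2 fold changes among genes with an adjusted p under 0.05 and a mean of at least 10 FPKM in the higher group (and, at stage 6 vs. stage 1, no overlap), in AL6 vs. AL1, SM6 vs. SM1 and both differences between tissues. Marker lists could not be matched to IDs. Alternatives were a pseudocount of 0.1, no filter, division by median ratios, limma-voom, 1 fit of all groups, the replicate number as a block, and each library left out. The paper does not say which trees a replicate number stands for. Same-numbered libraries of EP6 and EP1 deviated together in every pair (r = 0.18 to 0.35), where the block gave 102 calls in place of 100. The highest r of differently numbered ones was 0.21. Same-numbered r was also above 0 throughout in other comparisons, such as AL4 vs. AL3 (0.053 to 0.35) and SM3 vs. SM2 (0.055 to 0.35). There the block gave 19 and 89 calls in place of 8 and 66. Figures were made with Python 3.11.15 and matplotlib 3.10.9.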

Additional observations from a re-analysis of the deposited data

Results flagged for a closer look

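Changes that differed between tissues under the same comparison of stages, by a limma test of the difference itself, were singled out. The AL and SM changes from stage 1 to stage 6 differed in 59 of the 163 genes (36.2%). This was near the 35.6% of all genes tested, so that only the direction set the genes apart. Named among them were Novel00308 (difference 4.18) and Cs4g08530 (3.57), with the AL change above the SM change, and Cs1g15440 (-3.93) and Cs8g15720 (-3.75), with the AL change below, as for Cs8g17620 (-3.29) and Cs4g05630 (-2.45). The distance of AL and SM from the EP and JS differed between stage 6 and stage 1 in 106 of the 163 genes (65.0%), against 43.6% of all genes tested. It was larger at stage 6 for Cs5g06570 (4.26) and orange1.1t05755 (4.17), and smaller for Cs3g23170 (-3.46) and Cs3g25730 (-3.32).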

How the results depend on the processing

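The FPKM table gives no measurement error of its own, the IDs have no names, and the rule's edge cuts through a continuous range: it found 205 genes (159 of them shared) with libraries scaled by their median ratios, 219 (150 shared) with a pseudocount of 0.1, and 159 to 169 without replicate 1, 2 or 3. None of the comparisons of single genes that were rerun changed direction. Cs3g25730 lost its call with limma-voom, and Cs4g05630 lost that in AL6 vs. AL1 in 9 of 12 alternatives. One fit of all 24 groups called 84 genes in AL2 vs. AL1, 6 in AL3 vs. AL2, 55 in AL4 vs. AL3, 68 in AL5 vs. AL4 and 21 in SM6 vs. SM5. AL4 vs. AL3 had 5 calls with a pseudocount of 0.1 and 1 without a filter. AL3 vs. AL2 had 17 calls without the libraries labelled AL2 replicate 1 and AL3 replicate 1 (174 higher and 250 lower of all 14682 genes). That alternative was chosen after seeing the data, as were the other values without both libraries. The cause of these differences was not tested. With 1 library left out at a time, the counts ran from 98 to 113 in AL6 vs. AL1, 94 to 106 in SM6 vs. SM1, 44 to 92 in EP6 vs. EP1, 51 to 66 in JS6 vs. JS1, 21 to 55 in AL2 vs. AL1, 0 to 16 in AL4 vs. AL3, 28 to 47 in AL5 vs. AL4, 16 to 29 in AL6 vs. AL5, 79 to 115 in SM2 vs. SM1, 39 to 78 in SM3 vs. SM2, 29 to 61 in SM4 vs. SM3, 28 to 65 in SM5 vs. SM4 and 16 to 60 in SM6 vs. SM5, from 45 to 60 for the AL and SM difference and from 102 to 110 for the distance to the EP and JS, and all were 0 in AL3 vs. AL2. Where a sample was left with 2 libraries, fewer samples entered the fit. With the replicate block, AL4 vs. AL3 had 19 calls and AL5 vs. AL4 had 73, and no other count moved by over 1.5 times. The replicate numbers were not taken to pair samples in any main fit, that of EP6 vs. EP1 included. Over all samples, same-numbered libraries had a mean correlation of 0.034 and differently numbered ones of -0.016.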
